A study of Mus musculus with 6 samples.

Results

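The tumour necrosis factor (TNF) ligand and receptor superfamilies were followed in injured mouse kidney. Members were the protein-coding genes whose symbols begin with Tnfsf (ligands) or Tnfrsf (receptors), together with Tnf, Lta, Ltb, Ltbr, Fas, Fasl, Cd40, Cd40lg, Cd70 and Cd27. The rule found 42 members among 25805 listed genes, of which 17221 were protein coding. By role they were 18 ligands, 5 receptors with a death domain, 15 other signalling receptors and 4 decoy or soluble receptors.

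Whole-kidney RNA of mice that had undergone ischaemia-reperfusion injury (IRI), a model of acute kidney injury in which blood flow is stopped and restored, was sequenced in 6 libraries. There were 3 libraries labelled CXCR2 KO and 3 labelled WT, and all 6 carried the same IRI treatment, so uninjured kidney is not among the groups. Strain, age, sex, time after injury and the allele were not given in the labels, and they do not state whether the libraries are of different animals, so p-values measure the spread between these libraries only. The study asked how CXCR2, a neutrophil chemokine receptor, acts in acute kidney injury.

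Recovered reads numbered 17372645 to 17937195 in the libraries labelled knockout and 15518083 to 20356601 in wild type. Cxcr2 itself had normalized counts of 98.0, 36.8 and 56.6 in the libraries labelled knockout (replicates 1, 2 and 3) and 15.9, 88.8 and 56.9 in wild type. The groups overlapped, so the label was not matched by a lower Cxcr2 count, and whether the allele leaves the counted exons in place was not given. Exchanged labels, which would turn every direction given here, were not tested for. The groups are therefore called by their labels throughout. Markers showed kidney in every library, with summed normalized counts over 10 proximal tubule markers of 104548 to 214311 in the libraries labelled knockout and 89127 to 136512 in wild type. Single libraries stood apart. In labelled-knockout library 1 the sum of 10 fat cell markers was 69780, against 366 to 4285 elsewhere, and the sum of 12 neutrophil markers was 4677, against 402 to 1391 elsewhere. In labelled-knockout library 3 the sum of 8 interferon-stimulated genes, a list added after values were seen, was 11476, against 1098 to 2448 elsewhere. The 10 fibroblast and pericyte markers summed to 4577 to 13140 in the libraries labelled knockout and 16333 to 35655 in wild type, without overlap.

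TNF superfamily ligands are mostly membrane-anchored trimers, some of which are cut free by proteases, and they act by clustering receptors on a neighbouring cell. Receptors with a death domain can recruit caspase-8 through FADD or TRADD, while most others bind TRAF adaptors and activate NF-kB, and decoy or soluble receptors bind ligand without passing on a signal. In the kidney the family is known for TNF-driven inflammation, for FAS-driven death of tubular cells, and for the TWEAK receptor FN14, which appears on injured tubular epithelium.

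Promoter sequence of 250 bases before the annotated start was matched by symbol for 32 members, with 36 promoters, in RefSeq on GRCm38.p6. The 4 windows below belong to the ligand that gave its name to the family, the ligand with the smallest p-value here, and a pair of receptors that were highest in the same library. Capitals mark the letters searched on both strands, namely TATAAA (known as the TATA box, in 12.4% of 32851 promoters), GAAA, a pair of any bases and GAAA again (core of the interferon-stimulated response element, 2.98%), TGACTCA (AP-1, 4.46%) and CCGGAAG (ETS, 6.91%). A further search for a kB motif (GGGA, a pair of any bases and TTCC) found it in 1.21% of promoters and, among members, in that of Ltb only.
Tnf, chr17:35202008-35202257, minus strand: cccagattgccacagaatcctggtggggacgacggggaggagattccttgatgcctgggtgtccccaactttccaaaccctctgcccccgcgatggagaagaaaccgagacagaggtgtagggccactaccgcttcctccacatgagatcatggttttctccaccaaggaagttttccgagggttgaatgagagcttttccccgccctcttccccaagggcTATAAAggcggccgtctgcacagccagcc
Tnfsf13b, chr8:10006217-10006466, plus strand: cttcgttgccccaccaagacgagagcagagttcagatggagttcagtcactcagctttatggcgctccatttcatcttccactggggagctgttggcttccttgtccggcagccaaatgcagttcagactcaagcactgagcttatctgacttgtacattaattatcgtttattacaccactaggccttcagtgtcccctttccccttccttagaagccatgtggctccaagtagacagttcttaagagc
Tnfrsf1b, chr4:145246871-145247120, minus strand: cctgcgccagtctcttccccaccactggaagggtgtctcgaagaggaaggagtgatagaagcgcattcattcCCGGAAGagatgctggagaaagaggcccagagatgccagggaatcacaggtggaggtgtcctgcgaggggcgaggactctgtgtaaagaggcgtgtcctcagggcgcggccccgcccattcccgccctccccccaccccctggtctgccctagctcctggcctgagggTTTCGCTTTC
Fas, chr19:34290409-34290658, plus strand: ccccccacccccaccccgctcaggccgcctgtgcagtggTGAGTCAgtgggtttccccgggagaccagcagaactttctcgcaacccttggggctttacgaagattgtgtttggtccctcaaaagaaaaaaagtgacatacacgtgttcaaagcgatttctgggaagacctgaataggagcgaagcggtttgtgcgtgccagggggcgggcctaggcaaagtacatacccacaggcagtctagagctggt
The Tnf window holds a TATA box at -29 to -24, counted back from the start, as is known of this inducible gene. The Tnfsf13b window shown, the one before the listed gene start, holds none of these letters, but RefSeq gives Tnfsf13b another promoter, at chr8:10006383-10006632, whose window holds the interferon element core at -16 to -7 and an AP-1 match at -127 to -121. That window runs into the listed gene and is not printed. The Tnfrsf1b window holds the interferon element core at -10 to -1 and an ETS match at -178 to -172, and the Fas window an AP-1 match at -211 to -205. These matches are descriptions of letters and not of bound sites.

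The family was dominated by 4 receptors. In TPM, which divide the reads by the listed gene length, scale each library to 1 total and so allow genes to be compared, Tnfrsf12a (FN14, the TWEAK receptor) had 599, 307 and 377 TPM in the libraries labelled knockout and 404, 453 and 314 TPM in wild type. Next came Tnfrsf21 (death receptor 6) at 193 to 233 TPM in the libraries labelled knockout and 152 to 344 TPM in wild type. Tnfrsf1a (TNF receptor 1) had 182 to 243 TPM in the libraries labelled knockout and 141 to 159 TPM in wild type. Ltbr, the lymphotoxin beta receptor, had 118 to 191 TPM in the libraries labelled knockout and 120 to 157 TPM in wild type. The order of these 4 by group mean was the same in both groups, but neighbours in that order overlapped in range, except Tnfrsf12a and Tnfrsf21 in the libraries labelled knockout. Together they held 86.4% to 89.3% of the TPM of all members in the libraries labelled knockout and 86.0% to 88.4% in wild type. The 18 ligands together held 3.61% to 7.23% of it in the libraries labelled knockout and 5.51% to 6.61% in wild type.

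**Figure D1:**
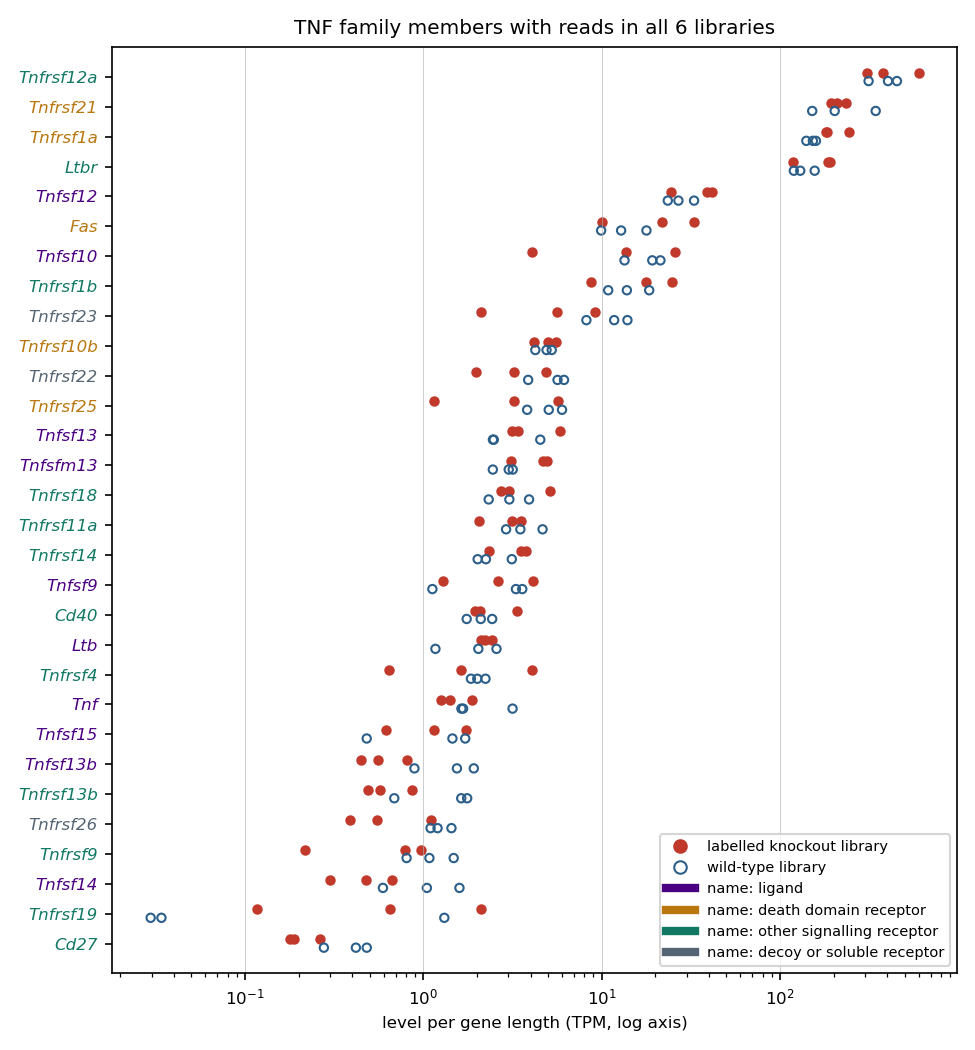
Level per gene length (TPM, log axis) of the 30 members with reads in all 6 libraries, with 1 point per library, filled for the libraries labelled knockout and open for wild type, and names coloured by role. Tnfrsf12a, Tnfrsf21, Tnfrsf1a and Ltbr lie above 100 TPM in every library, and every other member below 50 TPM.

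The ligand highest per length was Tnfsf12 (TWEAK) at 24.6 to 41.7 TPM in the libraries labelled knockout and 23.5 to 33.0 TPM in wild type. Tnfsf10 (TRAIL, a death ligand) followed at 4.09 to 26.0 TPM in the libraries labelled knockout and 13.5 to 21.4 TPM in wild type. Tnf had 1.26 to 1.87 TPM in the libraries labelled knockout and 1.64 to 3.17 TPM in wild type. In every library all receptors together thus exceeded all ligands in TPM, by 26.7, 13.0 and 12.8 times in the libraries labelled knockout and by 14.1, 15.3 and 17.2 times in wild type. These are RNA levels of whole tissue, in which fewer cells of a type and less RNA per cell cannot be told apart.

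No member differed past the threshold between the groups. Of the 42 members, 36 reached a mean normalized count of 1 or more and were tested, and 0 had a limma adjusted p under 0.05, with 0.433 the smallest. Over all 21721 genes tested, 0.0046% were called by limma. At an unadjusted p under 0.05 there were 2 members, Tnfsf13b and Tnfrsf1a, which is 5.56% of those tested, against 10.1% of all genes. With edgeR 0 of 28 members passed, against 0.00628% of all genes, and with DESeq2 0 of 29, against 1.95% of all genes. Either tool had 2 members at an unadjusted p under 0.05, a count for which the share over all genes was not determined. In 4 of the 36 members, 11.1%, the groups did not overlap, against 17.7% of all genes. Those were Tnfrsf1a and Tnfsfm13 on the higher side in the libraries labelled knockout, and Tnfsf13b and Cd27 on the lower side. The log2 fold change, labelled knockout over wild type, was positive for 20 members and negative for 16, with a median of 0.068, against -0.001 over all genes tested. Among so few members, 0 called is uninformative at these shares, and no difference from the shares of all genes was tested.

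**Figure D2:**
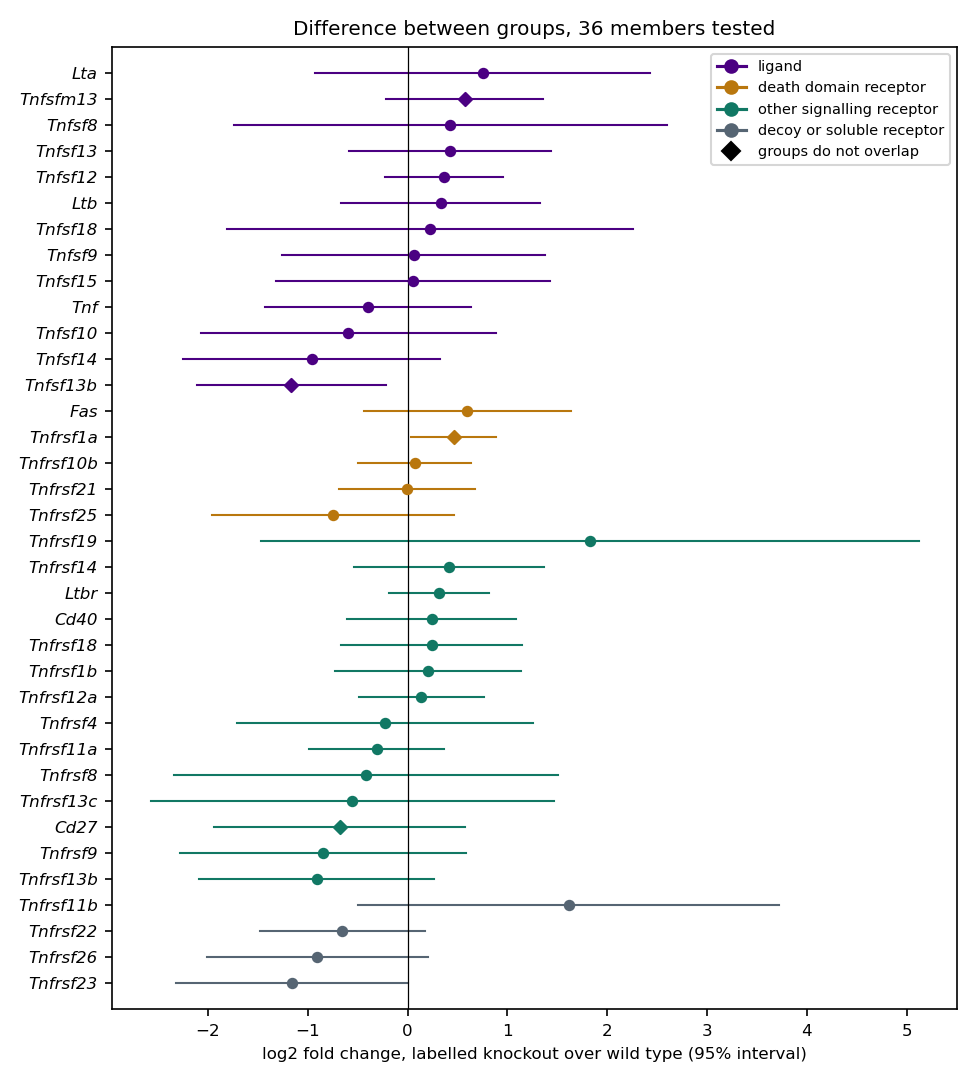
Log2 fold change (labelled knockout over wild type, log2(normalized count + 1) scale) with its 95% interval for the 36 members tested, grouped and coloured by role, with diamonds where the groups do not overlap. The intervals of Tnfsf13b (-2.11 to -0.22) and Tnfrsf1a (0.04 to 0.89) do not include 0, and the other 34 do.

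Precision limited what could be seen. The median standard error of a member's log2 fold change was 0.47, against 0.39 over all genes tested. Among the 15 members averaging a normalized count of 50 or more, the median within-group SD on the log2 scale was 0.49 in the libraries labelled knockout and 0.30 in wild type. Over all 12841 genes at that level it was 0.31 in the libraries labelled knockout and 0.19 in wild type. No test was made of this difference in spread.

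Tnf and its receptors came first by role. Tnf, the cytokine made chiefly by macrophages and other leukocytes, had normalized counts of 16.7, 13.6 and 22.6 in the libraries labelled knockout, against 18.4, 34.2 and 19.3 in wild type. The groups overlapped, wild-type library 2 was highest, and the log2 fold change was -0.40 (95% interval -1.43 to 0.63, limma adjusted p = 0.784). Reads behind these values numbered 14 to 22 in the libraries labelled knockout and 17 to 37 in wild type. Differences within that interval remain possible, and the part of read depth in its width was not tested.

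Tnfrsf1a, the widely expressed death domain receptor for TNF, had normalized counts of 3431, 3106 and 4644 in the libraries labelled knockout, against 2497, 2614 and 2908 in wild type. Every library labelled knockout lay above every wild-type library, library 3 by most. The mean was 3727 ± 810 in the libraries labelled knockout and 2673 ± 212 in wild type (SD, n = 3 each), a log2 fold change of 0.46 with a standard error of 0.19, which did not pass after adjustment (limma adjusted p = 0.467). Without labelled-knockout library 3 the log2 fold change was 0.29. Tnfrsf1a lies at chr6:125349362-125362484 (mm10, plus strand) in 11 exon blocks.

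Tnfrsf1b (TNF receptor 2, without a death domain and found mainly on leukocytes and endothelium) varied more among the libraries than Tnfrsf1a. Its normalized counts were 691, 221 and 499 in the libraries labelled knockout, against 285, 465 and 373 in wild type. Labelled-knockout libraries 1 and 2 were the highest and lowest of all 6, the groups overlapped, and the log2 fold change was 0.21 (standard error 0.41, limma adjusted p = 0.887). Without labelled-knockout library 1 it was -0.14. The neutrophil marker sum was 4677, 446 and 1036 in the libraries labelled knockout, against 402, 1391 and 1123 in wild type. Within each group, though not over all 6 libraries, its order was that of Tnfrsf1b, and its part in the receptor's values was not tested. Per length, Tnfrsf1a exceeded Tnfrsf1b by 7.32, 20.7 and 13.7 times in the libraries labelled knockout and by 12.9, 8.28 and 11.5 times in wild type.

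The lymphotoxin genes sit beside Tnf in the genome. Ltb, the membrane-bound partner, had normalized counts of 26.7, 22.3 and 23.7 in the libraries labelled knockout, against 26.7, 20.4 and 12.5 in wild type (log2 fold change 0.33, limma adjusted p = 0.819). Ltbr had 2016, 2893 and 3330.3 in the libraries labelled knockout, against 1930.0, 2017 and 2601 in wild type. The groups overlapped for both genes. For Ltbr the log2 fold change was 0.31 with a standard error of 0.22 (limma adjusted p = 0.645). Lta, which completes the soluble or mixed lymphotoxin trimer, had at most 4 reads in any library. Tnfsf14 (LIGHT), the other ligand of the lymphotoxin beta receptor, had normalized counts of 8.91, 5.81 and 4.12 in the libraries labelled knockout, against 7.52, 19.4 and 13.7 in wild type. For LIGHT the log2 fold change was -0.96 with a standard error of 0.56 (limma adjusted p = 0.588), on 4 to 8 reads in the libraries labelled knockout and 9 to 21 in wild type.

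Of the 5 death domain receptors, Fas had the largest positive log2 fold change. Fas, which recruits FADD and caspase-8 when bound by FAS ligand, had normalized counts of 432, 119 and 289 in the libraries labelled knockout, against 159, 212 and 126 in wild type. Labelled-knockout library 1 was highest and labelled-knockout library 2 lowest of all 6. The log2 fold change was 0.60 with a standard error of 0.45 (limma adjusted p = 0.674), and 0.20 without library 1 of that group. Library 1 was thus the highest for both Fas and Tnfrsf1b, and it was also the one with the highest fat and neutrophil marker sums, whose part was not tested. Fasl, the ligand carried by cytotoxic lymphocytes, was below the filter, with 1, 3 and 0 reads in the libraries labelled knockout and 1, 0 and 0 reads in wild type. A count of 0 allows up to 3 reads, which is a normalized count of 2.90 to 3.34 in the libraries labelled knockout and 2.51 to 3.41 in wild type, so no fold change is given.

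Tnfsf10 (TRAIL) had the widest range between libraries of the 8 members highest per length. It had normalized counts of 156, 473 and 1011 in the libraries labelled knockout, against 771, 668 and 499 in wild type. The lowest and the highest library of all 6 were both labelled knockout, 6.48 times apart, while the wild-type libraries lay between them. The log2 fold change was -0.59 (95% interval -2.07 to 0.88, limma adjusted p = 0.766), and 0.12 without labelled-knockout library 1. The interferon-stimulated genes, an induced group to which TRAIL is known to belong, summed to 1211, 2448 and 11476 in the libraries labelled knockout and 2257, 2175 and 1098 in wild type. Within each group, though not over all 6 libraries, the order of this sum was the same as that of Tnfsf10, and its part was not tested.

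The TRAIL receptors of the mouse are 1 signalling and a pair of decoy receptors. Tnfrsf10b (DR5), the death domain receptor, had normalized counts of 219, 149 and 202 in the libraries labelled knockout, against 159, 189 and 189 in wild type. These were among the tightest values of the family, with a log2 fold change of 0.07 (95% interval -0.49 to 0.64, limma adjusted p = 0.940). A further 3 receptors, chosen after their values were seen, are encoded side by side: Tnfrsf22 and Tnfrsf23, described in the mouse as TRAIL decoys, and Tnfrsf26, placed with them by sequence. Tnfrsf23 had normalized counts of 60.1, 146 and 270 in the libraries labelled knockout, against 223, 365 and 329 in wild type. Labelled-knockout library 1 was lowest, and only library 3 of that group reached the wild-type range. The log2 fold change was -1.16 with a standard error of 0.50 (limma adjusted p = 0.493), and -0.59 without labelled-knockout library 1. Tnfrsf22 had 60.1, 136 and 101 in the libraries labelled knockout, against 112, 171 and 168 in wild type, a log2 fold change of -0.65 (standard error 0.36, limma adjusted p = 0.573). Tnfrsf26 had 25.6, 11.6 and 9.26 in the libraries labelled knockout, against 24.2, 30.5 and 27.3 in wild type, a log2 fold change of -0.90 (standard error 0.49, limma adjusted p = 0.563). The groups overlapped for all 3 genes. Summed in TPM over the 4 decoy or soluble receptors, which include Tnfrsf11b, the groups did not overlap. That sum was at most 13.3 TPM in the libraries labelled knockout and at least 13.8 TPM in wild type, and the difference was not tested. The sums of the other roles overlapped between the groups. Tnfrsf22 and Tnfrsf23 share 17.3% and 18.0% of their 50-base stretches with each other, and as it is not known how reads that match both were handled, their separate counts are uncertain. Per length, Tnfrsf10b stood to the sum of both decoys as 1.37, 0.396 and 0.402 in the libraries labelled knockout and as 0.351, 0.261 and 0.282 in wild type, a ratio also chosen after values were seen and given with no test.

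By mean TPM over all libraries the TWEAK pair was the highest ligand with the highest receptor, although Tnfrsf21 exceeded Tnfrsf12a in wild-type library 3. Tnfsf12 had normalized counts of 270, 391 and 467 in the libraries labelled knockout, against 244, 269 and 353 in wild type, with overlap between the groups, and it shares 48.3% of its exon bases with the joined unit Tnfsfm13. Its log2 fold change was 0.36 with a standard error of 0.26 (limma adjusted p = 0.655). Tnfrsf12a, at chr17:23675445-23677468 (mm10, minus strand), had 8384, 3908 and 5376 in the libraries labelled knockout, against 5343, 5767 and 4280 in wild type. Again library 1 of the labelled knockouts was highest and library 2 lowest, and the log2 fold change was 0.14 (95% interval -0.48 to 0.76, limma adjusted p = 0.887). Without labelled-knockout library 1 it was -0.15. The receptor exceeded its ligand per length by 24.4, 7.84 and 9.02 times in the libraries labelled knockout and by 17.2, 16.8 and 9.52 times in wild type.

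The B cell survival ligand Tnfsf13b (BAFF), which is made by myeloid and stromal cells, had the smallest p-value of the family. It lies at chr8:10006467-10039072 (mm10, plus strand) in 7 exon blocks. Its normalized counts were 40.1, 25.2 and 22.6 in the libraries labelled knockout, against 72.7, 87.0 and 43.2 in wild type. All 3 libraries labelled knockout were below all 3 wild-type libraries, although library 1 and wild-type library 3 were close. The mean was 29.3 ± 9.43 in the libraries labelled knockout and 67.6 ± 22.3 in wild type (SD, n = 3 each), and the log2 fold change of -1.17 with a standard error of 0.42 did not pass after adjustment (limma adjusted p = 0.433, and 0.174 to 0.945 over the alternative settings). Leaving out a library in turn gave -1.45 to -0.96. Fibroblast markers, 10 of 10 with negative log2 fold changes, summed to 7192, 13140 and 4577 in the libraries labelled knockout and 27281, 35655 and 16333 in wild type. Dendritic cell markers summed to 325, 286 and 232 in the libraries labelled knockout and 426, 538 and 312 in wild type, most of it Zbtb46 and Itgax, while Flt3, Xcr1, Cd209a and Siglech were at 0 in 1 or more libraries. The dendritic cell sums overlapped between the groups. Macrophage and monocyte markers summed to 11319, 5539 and 7719 in the libraries labelled knockout and 6629, 11008 and 8001 in wild type. Neutrophil markers summed to 4677, 446 and 1036 in the libraries labelled knockout and 402, 1391 and 1123 in wild type. Both of these lists overlapped as well. The part of any of these cell types in the BAFF values was not tested.

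The BAFF receptors and the joined unit Tnfsfm13 follow. Per length, Tnfsf13b stood to its sister ligand Tnfsf13 (APRIL) as 0.238, 0.177 and 0.076 in the libraries labelled knockout. In wild type the ratios were 0.628, 0.773 and 0.197, so per length APRIL was the higher in every library. That order rests on listed lengths of 6868 bases for Tnfsf13b and 1637 for Tnfsf13. In reads Tnfsf13b was higher in wild-type libraries 1 (87 against 33) and 2 (94 against 29). It was equal in labelled-knockout library 1 (36 each) and lower in the others. Tnfsf13 shares 60.0% of its exon bases with Tnfsfm13, so its count is uncertain. Tnfrsf13c (BAFF receptor, a B cell gene) had 1, 2 and 0 reads in the libraries labelled knockout and 7, 2 and 0 reads in wild type, a log2 fold change of -0.55 with a 95% interval of -2.57 to 1.47. Tnfrsf13b (TACI), chosen after its values were seen, had normalized counts of 17.8, 10.6 and 10.3 in the libraries labelled knockout, against 13.4, 30.5 and 35.3 in wild type (log2 fold change -0.91, limma adjusted p = 0.578). Tnfrsf17 (BCMA, of plasma cells) was below the filter. The 9 B and plasma cell markers without Sdc1, which tubular cells also express, a list added after values were seen, summed to 65.7, 81.3 and 84.4 in the libraries labelled knockout and 85.3, 52.7 and 41.0 in wild type. Tnfsfm13, a joined transcript unit of Tnfsf12 and Tnfsf13, had normalized counts of 50.1, 68.7 and 81.3 in the libraries labelled knockout, against 37.6, 44.4 and 50.1 in wild type. Its groups did not overlap, by a margin of less than 1 count, and its log2 fold change was 0.57 with a standard error of 0.34 (limma adjusted p = 0.597). It shares exon bases with both parents on the same strand, 44.0% of its own with Tnfsf13 alone, so its count cannot be told apart from theirs.

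The bone-remodelling axis was represented by its receptors. Tnfsf11 (RANKL) was below the filter, with no read in the libraries labelled knockout and 0, 3 and 0 reads in wild type, so it gets no fold change. Tnfrsf11a (RANK) had normalized counts of 136, 138 and 90.6 in the libraries labelled knockout, against 120, 184 and 148 in wild type (log2 fold change -0.31, standard error 0.30, limma adjusted p = 0.740). Tnfrsf11b (osteoprotegerin, the soluble receptor that captures RANKL) had 8.91, 4.84 and 10.3 in the libraries labelled knockout, against 10.9, 0.925 and 0 in wild type. Wild-type library 1 was the highest of all 6 and the other wild-type libraries the lowest, so the log2 fold change of 1.61 carried a standard error of 0.93 (limma adjusted p = 0.580). It was 0.86 without wild-type library 3 and 2.64 without wild-type library 1, and 2.89 and 0.72 at pseudocounts of 0.1 and 5.

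Among the remaining receptors, Cd40, the co-stimulatory receptor of antigen-presenting cells, had normalized counts of 51.2, 43.6 and 84.4 in the libraries labelled knockout, against 56.8, 47.2 and 42.1 in wild type (log2 fold change 0.24, limma adjusted p = 0.846). Tnfrsf21 had 6201, 5232 and 7089 in the libraries labelled knockout, against 4272, 5492 and 9977 in wild type. The wild-type libraries spanned the whole range and the log2 fold change was -0.01 (95% interval -0.69 to 0.67, limma adjusted p = 0.996). Tnfrsf19 (TROY), a receptor of epithelial and neural progenitors, had 22.3, 65.8 and 4.12 in the libraries labelled knockout, against 42.6, 0.925 and 1.14 in wild type. In both groups single libraries differed by more than 10-fold, and the log2 fold change of 1.82 had a 95% interval of -1.47 to 5.12. It was 0.95 without labelled-knockout library 2, 2.81 without labelled-knockout library 3, 3.30 without wild-type library 1, and 1.05 and 1.12 without wild-type libraries 2 and 3, while edgeR gave 1.00 and DESeq2 1.04. Of the 15 receptors without a death domain that are not decoys, 14 were tested, 7 with a positive and 7 with a negative log2 fold change.

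Several members were near the limit of the depth. The members below the filter were Tnfrsf17, Cd70, Fasl, Cd40lg, Tnfsf4 (OX40 ligand) and Tnfsf11, each with at most 3 reads in any library. In all, 12 members had no read in at least 1 library and 12 never reached 10 reads, while 9 had at least 100 reads in every library. Cd27, the receptor of CD70 on lymphocytes, had no overlap between groups, but on 3 to 4 reads in the libraries labelled knockout and 4 to 8 in wild type (log2 fold change -0.68, limma adjusted p = 0.698). The 16 T and NK cell markers summed to 94.7 to 137 in the libraries labelled knockout and 59.2 to 86.9 in wild type, with Ncr1 at 0 in the libraries labelled knockout.

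The libraries were also set side by side singly. Labelled-knockout library 3 and wild-type library 2 were each the highest of the 6 for 10 of the 36 tested members, 27.8%, against 16.7% and 16.6% of all genes tested. Labelled-knockout library 2 was lowest for 9 members, 25.0%, against 14.0% of all genes, and wild-type library 3 for 10, 27.8%, against 10.6% of all genes. Wild-type library 3 had the fewest recovered reads, 15518083. The members lowest there had at most 37 reads in it, and Lta, Tnfrsf11b, Tnfsf8 and Tnfsf18 had none. The shares over all genes are not matched to the members in level. Labelled-knockout library 1 was highest for 5 members, 13.9%, against 28.4% of all genes tested, and lowest for 4, 11.1%, against 31.2% of all genes. The members' median difference from the wild-type mean was -0.07, -0.14 and 0.14 on the log2 scale in the libraries labelled knockout and 0.02, 0.13 and -0.20 in wild type. The groups overlapped, and the corresponding median of all genes lay within 0.01 of 0 in every library.

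**Figure D3:**
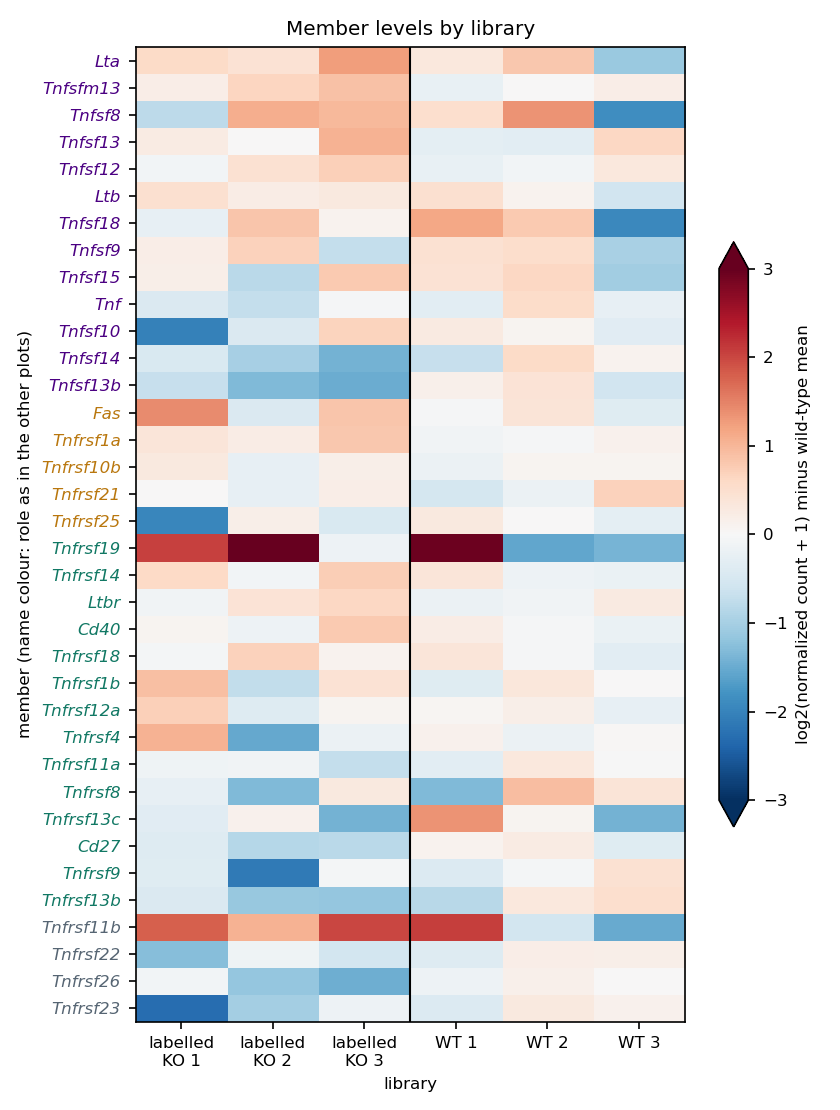
Level of the 36 tested members in each library as log2(normalized count + 1) minus the wild-type mean, on a colour scale ending at -3 and 3, with the libraries labelled knockout left of the line and members ordered by role and fold change. No role group has all its members on the same side of the wild-type mean in all 3 libraries labelled knockout. Of the decoy or soluble receptors, Tnfrsf22, Tnfrsf23 and Tnfrsf26 lie below that mean in all 3, and Tnfrsf11b, on few reads, lies above it. Tnfrsf19 has the largest standard error of all (1.41).

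**Figure D4:**
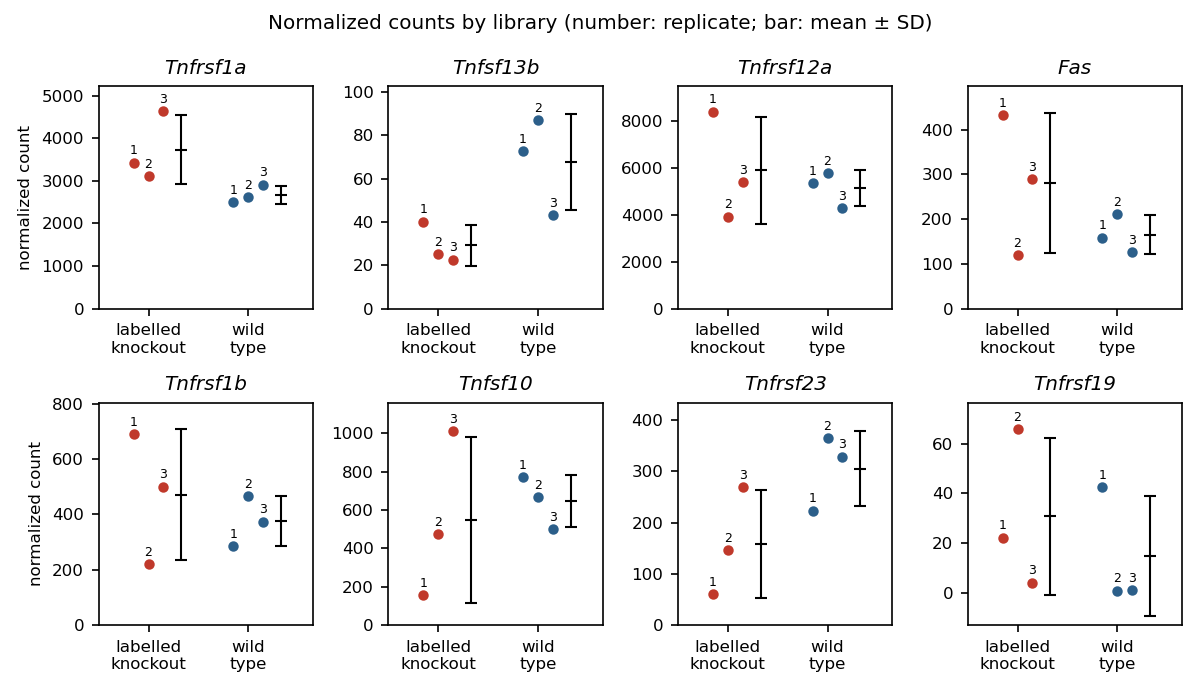
Normalized counts by library for 8 members, with the replicate number at each point, libraries labelled knockout left, wild type right, and the mean ± SD (n = 3) as a bar beside each group. Tnfrsf1a and Tnfsf13b show no overlap between groups, while labelled-knockout library 1 is highest for Tnfrsf12a, Fas and Tnfrsf1b and lowest for Tnfsf10 and Tnfrsf23.

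Members that neighbour each other were also compared. Within a gap of 200 kb, 9 clusters held 23 of the 42 members. In the chr7:143607659-143685872 cluster (mm10) all 3 genes, Tnfrsf26, Tnfrsf22 and Tnfrsf23, had negative log2 fold changes. In the chr11:69682577-69696098 cluster all 3 genes, Tnfsfm13, Tnfsf13 and Tnfsf12, had positive ones, but these share exons and so reads. In the Ltb, Tnf and Lta cluster at chr17:35194439-35205351 there were 2 positive and 1 negative. The cluster of Cd27, Ltbr and Tnfrsf1a at chr6:125232622-125362484 likewise had 2 positive and 1 negative. Exons of Tnfrsf18 and Tnfsf9 overlap genes on the other strand over 27.2% and 14.9% of their bases, and without knowledge of strand use those counts are uncertain too. None of these members passed the threshold, so the shared signs are given as a description.

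The pathway around the family was read from 6 lists, none of whose genes passed limma's threshold. Of 28 receptor adaptors and kinases, 21 had a positive log2 fold change, with a median of 0.17, and 2 of the 28 had an unadjusted p under 0.05, against 10.1% of all genes tested. Rnf31, the catalytic subunit of the linear ubiquitin ligase, had normalized counts of 793, 831 and 1195 in the libraries labelled knockout, against 530, 521 and 636 in wild type (log2 fold change 0.72, limma adjusted p = 0.390). Tab2, an adaptor of the TAK1 kinase, followed with 0.47, the deubiquitinase Cyld with 0.40, and the adaptor Traf1 with -0.71. Traf1 was lower in all 3 libraries labelled knockout than in the 3 of wild type, at 57.6 to 78.0 normalized counts against 86.1 to 148.

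NF-kB subunits and inhibitors had positive log2 fold changes in 9 of 10 genes, with a median of 0.43, and 4 of the 10 were at an unadjusted p under 0.05, against 10.1% of all genes tested. In 1 of the 10 the groups did not overlap, against 17.7% of all genes. The list summed to 14112, 8028 and 11304 normalized counts in the libraries labelled knockout, highest in library 1. In wild type it summed to 6745, 6886 and 8768, with overlap. Bcl3, an atypical inhibitor protein that binds p50 and p52, had normalized counts of 1073, 1173 and 1357 in the libraries labelled knockout, against 557, 454 and 708 in wild type. The groups did not overlap and the log2 fold change was 1.08 with a standard error of 0.20. It did not pass with limma (limma adjusted p = 0.329) or edgeR (adjusted p = 0.358) but did with DESeq2 (adjusted p = 0.00431), and the range over the alternative settings was 0.00431 to 0.945. Nfkbiz (0.73), Rela (0.67) and Nfkbib (0.45) were next by p-value on the same log2 scale. Rela, whose groups overlapped (limma adjusted p = 0.477), encodes p65, which the study's title names.

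Other lists were mixed. Among 8 death effectors 3 had positive and 5 negative log2 fold changes, led by the necroptosis kinase Ripk3 with 70.2, 92.0 and 102 normalized counts in the libraries labelled knockout, against 121, 221 and 157 in wild type (log2 fold change -0.89, limma adjusted p = 0.434). Bid (0.23), a BH3-only protein cut by caspase-8, and Xiap (-0.13), a caspase inhibitor, were also named by the rule of smallest p-values. Of 18 genes known to be induced by TNF, 10 had positive and 8 negative log2 fold changes, with Ccl5 at 1.60, Ptgs2 at -0.96, Cxcl10 at 2.31 and Icam1 at 0.53. Cxcl10, also an interferon-induced chemokine, had 425, 265 and 4547 normalized counts in the libraries labelled knockout, against 179, 129 and 181 in wild type, and without labelled-knockout library 3 its log2 fold change was 1.06. Of 5 genes of the TNF-shedding machinery, 4 had positive log2 fold changes, namely Timp3 (0.70), which inhibits the sheddase, and Rhbdf2 (0.62) and Rhbdf1 (0.28), which mature it, among the 4 with the smallest p-values, where Adam10 was at -0.14. Family members with other names, 5 in all, had 3 positive and 2 negative, with Edar at -1.47, Relt at -0.19, Ngfr at 0.10 and Eda2r at 0.04.

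The remaining cell type lists were also summed. Macrophage and monocyte markers gave 5539 to 11319 in the libraries labelled knockout and 6629 to 11008 in wild type, with overlap. Endothelial markers gave 5430 to 13132 in the libraries labelled knockout and 13177 to 22323 in wild type. Thick limb, distal and collecting duct markers gave 24152 to 102883 in the libraries labelled knockout and 48852 to 90055 in wild type, and podocyte markers gave 8538 to 10686 in the libraries labelled knockout and 7609 to 9652 in wild type. The full B and plasma cell list, which includes Sdc1, gave 613 to 1012 in the libraries labelled knockout and 1619 to 2089 in wild type. The part of these cell types in the members' values was not tested.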

How the data were processed

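Gene-level values of 6 kidney libraries were grouped by the genotype in the labels, with replicate numbers from the titles. The deposited signal per gene is a read count scaled by the authors with 1 size factor in each library, which can be seen from the values: 100% were whole multiples of 1 step within 0.001 reads. The genome build was mm10, per the submitters' processing notes. Aligner, counting program, strand use and annotation release were not given in the sources used. Symbols, gene lengths and coordinates were taken as deposited, and 41 of 42 members had the same start and end in GENCODE M21. TPM were computed from the recovered reads and the listed lengths.

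The main test was limma 3.58.1 (trend and robust options, R 4.3.3) on log2(normalized count + 1) for genes averaging 1 or more, with Benjamini-Hochberg adjustment over 21721 genes. On this scale the log2 fold changes of low genes depend on the added 1 and can be larger or smaller than those of a count test. That of Tnfrsf11b was 1.61, against 0.99 with DESeq2, and that of Cd27 was -0.68, against -0.85 with DESeq2. Intervals are at 95%. edgeR 4.0.16 (quasi-likelihood, TMM; 15915 genes, 1 called) and DESeq2 1.42.0 (316 called) were alternatives, fitted to the recovered reads. The scripts were tested on simulated data. Members and lists were chosen with earlier results of these data known, and the interferon list and the B cell list without Sdc1 were added after values were seen. Values in every library are given for 20 core members whatever their values and for members with a mean of at least 10 whose groups do not overlap or whose unadjusted p is under 0.05. From each pathway list up to 4 genes with the smallest p are named, and 1 gene that this rule takes is not reported here. With 3 libraries a group, an exact permutation test of 1 gene cannot go below 0.1. Limits from a count of 0 use 3 reads and cover counting error only.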

Additional observations from a re-analysis of the deposited data

How the results depend on the processing

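The count of members past the threshold was 0 under all 15 alternatives run. Members at an unadjusted p under 0.05 numbered 2, and 0 to 6 when 1 library was left out (0 without wild-type library 2, 6 without labelled-knockout library 1, 4 without labelled-knockout library 2 or wild-type library 1). Outside the main setting the share of all genes at that cut-off was not determined, so these counts have no background beside them. The members' median log2 fold change was 0.068, and -0.22 to 0.22 when 1 library was left out, with -0.22 without wild-type library 3; it was -0.02 when scaled to library totals, which shifted all genes by -0.09. Genes past the threshold over the whole table numbered 1, but 4 with TMM, 4 with library totals, 5 at a pseudocount of 5, 5 without a filter, 316 with DESeq2 and 1 to 6 when 1 library was left out (6 without labelled-knockout library 1, 3 without labelled-knockout library 3). The cause was not tested. Bcl3 passed with DESeq2 only, at a log2 fold change of 1.07.

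Whether the same replicate number pairs the samples could not be told from the values. Deviations of same-numbered libraries correlated at 0.07, -0.15 and 0.12 over 12841 genes, and those of differently numbered libraries at -0.23 to 0.20. With 3 libraries a group, the deviations from a group mean constrain each other, so these correlations cannot decide it. With the replicate block 16 genes passed over the whole table and 3 members had an unadjusted p under 0.05, again without a share over all genes.

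Signs turned under some settings. The log2 fold change of Tnfrsf4 was 0.12 with edgeR and 0.13 with DESeq2, against -0.23. Scaled to library totals, it was -0.021 for Tnfrsf10b, -0.028 for Tnfsf9, -0.038 for Tnfsf15 and -0.055 for Eda2r, and Tnfsf18 was at -0.021 at a pseudocount of 5. Leaving out 1 library gave -1.22 to 0.12 for Tnfsf10, -0.032 to 0.44 for Cd40, -0.15 to 0.40 for Tnfrsf12a, -0.14 to 0.68 for Tnfrsf1b, -1.07 to 0.042 for Tnfrsf8 and -0.50 to 1.11 for Tnfsf8. It gave -0.87 to 0.43 for Tnfrsf4, -0.039 to 0.24 for Tnfrsf10b, -0.74 to 0.81 for Tnfsf18, -0.42 to 0.46 for Tnfsf9 and -0.47 to 0.49 for Tnfsf15. It gave -0.27 to 0.34 for Tnfrsf21, -0.35 to 0.49 for Ngfr and -0.28 to 0.37 for Eda2r. Tnfrsf13c was below the filter without wild-type library 1, and edgeR and DESeq2 gave no adjusted p for the members below their own filters. Depth limits the 12 members that never reached 10 reads.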
